A study of Mus musculus with 6 samples.

Results

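The mouse blood-brain barrier endothelial genes described here were Cldn5, Ocln, Tjp1, Mfsd2a, Slco1c1, Abcb1a, Cdh5, Tek, Kdr and Plvap, chosen by gene name for what they are known to do in brain vessels. All 10 names were found among the 41386 genes of the deposited table, and all 10 were among the 18569 genes with enough counts to be tested. The table held bulk RNA-seq read counts from the hippocampus of 56-day-old wild-type mice, C57BL/6 in the labels and male C57BL/6J in the study's methods. The I/R group had the middle cerebral artery blocked by a filament for 1.5 h and reopened for 24 h, and the sham group had the same surgery with no filament inserted. Each group had 3 libraries, from hippocampi of the operated side. The study's methods state pooling of hippocampi for the proteomic runs, and its figure legend for the RNA-seq gives 3 hippocampal samples per replicate. A library thus likely stood for several animals, though pooling of the RNA is not stated outright. The p-values measure the spread between these libraries. RNA came from whole tissue, in which fewer vessel cells and less RNA per vessel cell cannot be told apart.

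The blood-brain barrier is formed by brain endothelial cells that seal the gaps between them with tight junctions, carry few transport vesicles and move nutrients and drugs through dedicated transporters. Claudin-5 and occludin span the membrane at the junction and ZO-1 ties them to the cytoskeleton, while VE-cadherin holds the adherens junction. VEGF receptors and the angiopoietin receptor Tie2 set growth, permeability and quiescence of these vessels. After ischemia the barrier is known to leak, and the named genes are commonly read as its markers.

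Library totals ran from 37493042 to 44788547 counts. Levels are given in CPM, counts per 1000000 of the library after TMM scaling (trimmed mean of M-values), on which 3 counts, taken as the floor of detection, correspond to 0.0659 to 0.0872 CPM, and each of the 10 genes was far above it in every library. Choroid plexus transcripts differed widely between libraries. Ttr, the main one, had 68521, 138610 and 810 counts for I/R replicates 1, 2 and 3, against 385, 101015 and 140679 for the sham replicates, and the 13 choroid plexus genes together summed to 151 CPM in I/R replicate 3 and 179 CPM in sham replicate 1 against 2308 to 6370 CPM in the other 4 libraries. Counts and calls that changed by over 1.5 times or were lost without these 2 libraries low in Ttr are also given without them. Over all genes, 5255 were called without them, against 7756 with all 6 libraries, so a lost call was common there.

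Of the 10 genes, 4 rose in I/R (Cldn5, Cdh5, Tek and Kdr), 3 fell (Ocln, Slco1c1 and Abcb1a) and 3 did not pass the test (Tjp1, Mfsd2a and Plvap). Genes were called DEGs at an adjusted p below 0.05 from edgeR's quasi-likelihood test and a change over 1.2-fold. By that rule 41.8% of all tested genes were called, 21.8% higher and 19.9% lower, against 70.0% of the 10 barrier genes, so a call by itself was common in this tissue. The median log2 fold change was 0.00011 over the 10 genes and 0.03 over all genes. The 7 called genes were also those whose groups did not overlap, 4 with I/R above and 3 with I/R below, where 57.4% of all tested genes had groups that did not overlap, 29.3% with I/R above and 28.1% with I/R below. In the deposited FPKM, scaled by library totals, Ocln and Slco1c1 overlapped and Tjp1 did not, which left 5 genes with I/R above and 1 with I/R below. The share of all genes on the FPKM scale is not given here, so this count cannot be set against it. Scaling by totals alone also moved the median log2 fold change of all genes to 0.28. With 3 libraries against 3, the smallest p of an exact two-sided permutation test for a single gene is 0.1, which each of these 7 genes reached.

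The promoters of 4 called genes are shown, Cldn5 and Kdr among the genes that rose and Abcb1a and Slco1c1 among those that fell, so that the sequence before each start site can be read beside its change. The windows run from 250 bases before to 50 after the RefSeq start on GRCm38.p6, written 5′ to 3′ on the gene's strand, for Cldn5 at chr16:18776597-18776896 (+), for Kdr at chr5:75978406-75978705 (-), for Abcb1a at chr5:8566841-8567140 (+) and for Slco1c1 at chr6:141524104-141524403 (+). Capitals mark matches on either strand to the GC box GGGCGG, the ETS core CCGGAA, the TCF/LEF site CTTTGA and the hypoxia response core ACGTG. The AP-1 site TGANTCA and the SOX core ACAAT were also searched and had no match in these 4 windows.
Cldn5: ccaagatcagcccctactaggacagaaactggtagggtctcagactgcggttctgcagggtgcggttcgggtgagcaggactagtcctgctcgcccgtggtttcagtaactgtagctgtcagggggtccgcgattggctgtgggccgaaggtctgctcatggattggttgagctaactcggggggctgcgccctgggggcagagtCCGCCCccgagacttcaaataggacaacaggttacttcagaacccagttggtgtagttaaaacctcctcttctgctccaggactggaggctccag
Kdr: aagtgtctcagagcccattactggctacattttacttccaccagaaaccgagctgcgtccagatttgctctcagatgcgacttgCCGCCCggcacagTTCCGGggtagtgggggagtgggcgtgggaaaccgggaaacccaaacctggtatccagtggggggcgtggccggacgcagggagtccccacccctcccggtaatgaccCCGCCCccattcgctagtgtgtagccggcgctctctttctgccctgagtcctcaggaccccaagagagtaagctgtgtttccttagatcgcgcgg
Abcb1a: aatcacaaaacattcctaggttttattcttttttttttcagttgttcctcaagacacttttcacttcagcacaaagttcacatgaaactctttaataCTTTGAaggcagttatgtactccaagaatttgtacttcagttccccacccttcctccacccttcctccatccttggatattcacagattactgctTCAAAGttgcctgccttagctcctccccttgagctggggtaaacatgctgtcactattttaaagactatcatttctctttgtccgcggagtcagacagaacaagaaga
Slco1c1: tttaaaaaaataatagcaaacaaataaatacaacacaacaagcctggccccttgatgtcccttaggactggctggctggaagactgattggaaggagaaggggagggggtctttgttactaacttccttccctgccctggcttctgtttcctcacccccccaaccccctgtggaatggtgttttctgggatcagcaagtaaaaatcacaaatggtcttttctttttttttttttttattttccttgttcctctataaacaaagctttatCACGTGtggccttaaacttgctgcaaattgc

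RefSeq windows were at hand for 8 of the 10 genes, all but Cdh5 and Plvap. Cldn5 held 1 GC box and Kdr held 2 with 1 ETS core, and the GC box was present in 35.7% and the ETS core in 14.9% of 32851 mouse promoter windows of the same length. Abcb1a held 2 TCF/LEF sites, a motif in 16.0% of windows. Slco1c1 held a single palindrome that matched the hypoxia core on both strands, 19 and 20 bases after the start, and 19.6% of windows held that core. The base composition of the 4 windows differed, with 58.3% G and C for Cldn5, 60.7% for Kdr, 40.3% for Abcb1a and 42.0% for Slco1c1, beside a median of 52.7% over all windows. It did not follow the direction of change over all called genes with a window, since Ocln, which fell, had 64.0% and 68.0% in its 2 windows with a GC box in each, and Tek, which rose, had 52.0% and no GC box. A match is a description of the letters and not a bound site.

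Among the junction genes, Cdh5 showed the largest change of the 10. Cdh5 encodes VE-cadherin, the adhesion protein that joins endothelial cells to each other, and lies on chromosome 8 from 102201794 to 102250081 of the BALB/cJ assembly on which the table was counted. Its level in CPM was 81.2, 55.6 and 40.1 for I/R replicates 1, 2 and 3, against 15.3, 16.3 and 15.6 for the sham replicates. The sham libraries were nearly level and every I/R library was above all of them, with I/R replicate 1 the highest. Cdh5 was 3.75-fold higher in I/R, a log2 fold change of 1.91 ± 0.23 (SE), with a 95% confidence interval of 1.37 to 2.44 (edgeR adjusted p = 0.000976). Leaving out I/R replicate 1 gave 1.60.

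Cldn5, the claudin that dominates the tight junctions of brain endothelium, also rose. It lies on chromosome 16 from 15384744 to 15386157, and its counts were 3463, 2533 and 1974 for I/R against 1464, 1495 and 1271 for sham, or 62.9 ± 13.4 CPM against 37.1 ± 0.375 CPM (SD, n = 3 each). All 3 I/R libraries were above all 3 sham libraries. The log2 fold change was 0.76 ± 0.15 (SE), with a 95% confidence interval of 0.42 to 1.11 (edgeR adjusted p = 0.00528), and Cldn5 stayed called under each of the 18 alternative settings tried, with log2 fold changes from 0.60 to 1.03.

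Ocln, which encodes the tight junction protein occludin, moved the opposite way to Cldn5. It lies on chromosome 13 from 99169291 to 99222755. Its counts were the lowest of the 4 junction genes among the 10, at 404, 405 and 301 for I/R against 421, 522 and 473 for sham, which gave 8.88, 10.1 and 7.53 CPM against 10.8, 12.8 and 13.7 CPM. The groups did not overlap, but the highest I/R library lay just under the lowest sham library. Its log2 fold change was -0.49 ± 0.16 (SE), with a 95% confidence interval of -0.87 to -0.12 (edgeR adjusted p = 0.0399). The call was lost without I/R replicate 3 (adjusted p = 0.085), sham replicate 2 (0.115) or sham replicate 3 (0.137), and when libraries were scaled by their totals alone (0.279).

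Tjp1 encodes ZO-1, the scaffold below the junction, which many brain cells besides endothelium carry, and lies on chromosome 7 from 64861937 to 65099648. Its level was 162, 139 and 133 CPM in I/R and 133, 124 and 134 CPM in sham. I/R replicates 1 and 2 were above all sham libraries, replicate 1 by the most, and I/R replicate 3 lay within the sham range. The log2 fold change of 0.15 (SE 0.10, 95% confidence interval -0.08 to 0.38) did not pass the test with an edgeR adjusted p of 0.272, and with scaling by totals alone Tjp1 was called higher, at 0.41 (adjusted p = 0.0235), as it was with log2(FPKM + 1).

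**Figure D1:**
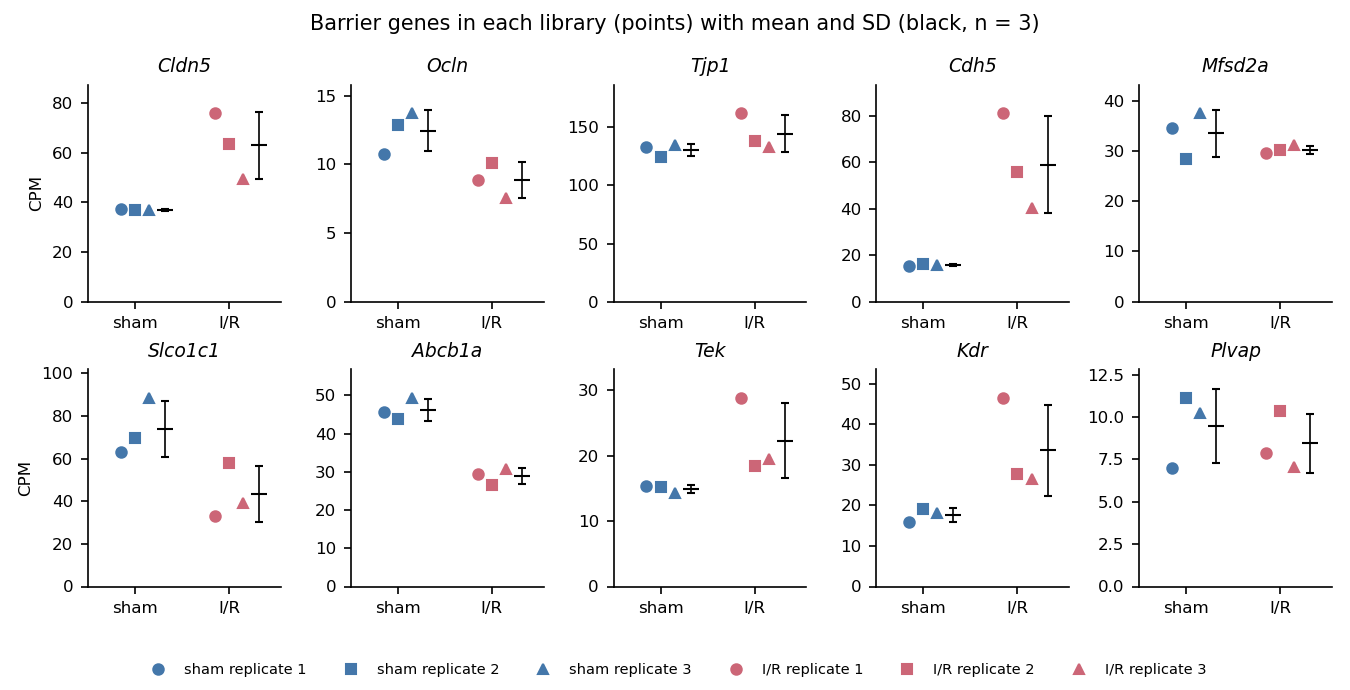
Level of each of the 10 barrier genes in every library, in CPM after TMM scaling, with points for the 3 sham and 3 I/R libraries and a bar at each group's mean. I/R points lie above all sham points for Cldn5, Cdh5, Tek and Kdr, below them for Ocln, Slco1c1 and Abcb1a, and overlap them for Tjp1, Mfsd2a and Plvap.

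The other tight and adherens junction genes moved as Cldn5 and Cdh5 did or did not pass the test. Of 18 tested, 8 were called higher by edgeR and the other 10 did not pass, with a median log2 fold change of 0.35 beside 0.03 for all genes, and 5 were called higher without the libraries low in Ttr. Leaving out 1 library gave 3 called higher without sham replicate 1 or 3, 4 without sham replicate 2 or I/R replicate 2, and 7 without either other I/R replicate. Calls over all genes also dropped, from 7756 to 5611, 5330 and 5480 without sham replicates 1, 2 and 3, and to 6530 without I/R replicate 2. Esam, an adhesion molecule of endothelial junctions, rose by a log2 fold change of 1.35. Jam2 and Cldn12, a junctional adhesion molecule and another claudin of brain endothelium, had log2 fold changes of -0.13 (adjusted p = 0.384) and -0.04 (adjusted p = 0.796).

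Both transporters among the 10 that passed the test fell. Abcb1a encodes the P-glycoprotein pump that returns many drugs to the blood, and lies on chromosome 5 from 5665289 to 5755686. It measured 29.4, 26.6 and 30.7 CPM in I/R and 45.6, 43.7 and 49.4 CPM in sham. The groups were well apart, with the I/R libraries close to each other. The log2 fold change was -0.68 ± 0.10 (SE), with a 95% confidence interval of -0.90 to -0.45 (edgeR adjusted p = 0.00166), and the gene stayed called lower under each of the 18 alternative settings.

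Its near copy Abcb1b went the other way. Abcb1b encodes the second mouse P-glycoprotein, and measured 16.8, 8.98 and 8.95 CPM in I/R against 3.89, 3.91 and 3.75 CPM in sham, which was a change of 1.59 ± 0.27 (SE) in log2 units (edgeR adjusted p = 0.00293). Every I/R library was above every sham library. In the GENCODE transcripts, 17.6% of the 50-base stretches of Abcb1a also occurred in Abcb1b or Abcb4, and how the counting treated reads from such stretches is not stated, so the split between the copies is uncertain. The other 9 barrier genes shared 0 such stretches with another gene.

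Slco1c1 encodes OATP1C1, which brings thyroxine across the barrier and is also made by choroid plexus epithelium. It lies on chromosome 6 from 140329742 to 140375075. Its level was 32.9, 57.9 and 39.3 CPM in I/R and 63.3, 69.6 and 88.7 CPM in sham. The groups did not overlap, and each spread over a wide range, from 32.9 to 57.9 CPM in I/R. The log2 fold change was -0.77 ± 0.22 (SE), with a 95% confidence interval of -1.27 to -0.27 (edgeR adjusted p = 0.0227). The call was lost without I/R replicate 1 (adjusted p = 0.133), I/R replicate 3 (0.0531), sham replicate 2 (0.0599) or sham replicate 3 (0.0832) and with scaling by totals alone (0.0654).

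Mfsd2a encodes the lysolipid transporter that brings docosahexaenoic acid into the brain and keeps vesicle traffic low, and lies on chromosome 4 from 120064666 to 120079882. Its level was 29.5, 30.1 and 31.1 CPM in I/R and 34.5, 28.5 and 37.6 CPM in sham. The I/R libraries lay inside the sham range. The log2 fold change of -0.15 (SE 0.12, 95% confidence interval -0.42 to 0.12) did not pass the test, with an edgeR adjusted p of 0.345, and its sign turned to 0.11 with scaling by totals alone.

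Other transporters and uptake receptors of the barrier endothelium went both ways, with 5 of 16 called higher, 3 lower and a median log2 fold change of -0.05 that turned to 0.21 with scaling by totals alone. Slco1a4, which encodes a carrier of organic anions, had a log2 fold change of -1.17 (adjusted p = 0.0181), a call lost without sham replicate 1 (0.0523), 2 (0.0582) or 3 (0.0515). Slc22a8, which encodes the anion transporter OAT3, had -1.26. The glucose transporter gene Slc2a1 and the drug pump gene Abcg2 had log2 fold changes of 0.33 (adjusted p = 0.0751) and 0.30 (adjusted p = 0.0674) and did not pass the test. Among those that rose besides Abcb1b were the amino acid carrier genes Slc7a5, Slc3a2 and Slc7a1 and the lactate carrier gene Slc16a1, and Slc7a5 lost its call without sham replicate 1 (adjusted p = 0.0539).

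**Figure D2:**
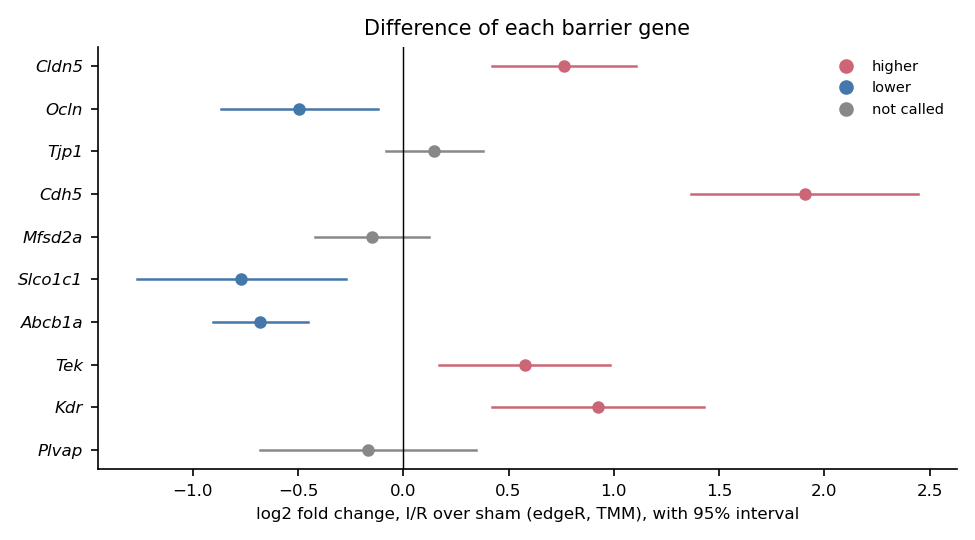
Log2 fold change of I/R over sham for the 10 barrier genes with its 95% confidence interval from the edgeR fit; 0 means equal levels. The values run from -0.77 for Slco1c1 to 1.91 for Cdh5, and the intervals of Tjp1, Mfsd2a and Plvap cross 0.

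The receptors Kdr and Tek rose, each with I/R replicate 1 highest. Kdr encodes VEGFR2, the main signalling receptor for VEGF, and lies on chromosome 5 from 73918076 to 73964082. It measured 46.6, 27.9 and 26.5 CPM in I/R and 15.8, 19.2 and 18.1 CPM in sham. Every I/R library was above every sham library, and replicate 1 was far above the other 2. The log2 fold change was 0.93 ± 0.22 (SE), with a 95% confidence interval of 0.42 to 1.43 (edgeR adjusted p = 0.0114), and it was 0.61 without I/R replicate 1, still called.

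Tek encodes Tie2, the receptor for angiopoietins, and lies on chromosome 4 from 91729773 to 91854402. It measured 28.9, 18.5 and 19.5 CPM in I/R and 15.4, 15.2 and 14.3 CPM in sham. The groups did not overlap, and I/R replicates 2 and 3 lay within a few CPM of the sham libraries. The log2 fold change was 0.58 ± 0.18 (SE), with a 95% confidence interval of 0.17 to 0.98 (edgeR adjusted p = 0.0319). It was 0.34 without I/R replicate 1, still called, and the call was lost without sham replicate 1 (adjusted p = 0.0815), 2 (0.094) or 3 (0.106).

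Among the ligands, co-receptors and response genes of these receptors, 8 of 18 were called higher and 2 lower, with a median log2 fold change of 0.47. Angpt2, the ligand that can block Tie2, measured 25.8, 15.5 and 10.3 CPM in I/R and 2.15, 2.66 and 2.09 CPM in sham, which was a change of 2.90 ± 0.34 (SE) in log2 units (edgeR adjusted p = 0.000849). Angpt2 overlaps Mcph1, which had 2607 counts over the 6 libraries beside 2470 for Angpt2. Angpt1, the activating ligand, had a log2 fold change of 0.18 (adjusted p = 0.524), and Tie1 and Ptprb, the partner receptor and the phosphatase of Tie2, had 0.72 (adjusted p = 0.0562) and 0.16 (adjusted p = 0.477). Vegfa rose by 0.43 (adjusted p = 0.00774), and Flt1, which encodes the VEGF receptor that traps the ligand, rose by 0.72 (adjusted p = 0.00407). The co-receptor gene Nrp1 fell by 0.84 on the log2 scale (adjusted p = 0.00365), and Pgf, another ligand gene, had 0.50 (adjusted p = 0.125). Esm1, a gene known to respond to VEGF in tip cells, rose the most of this list, by 4.22.

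Plvap encodes the diaphragm protein of fenestrated and leaky vessels, which the mature barrier keeps low and the choroid plexus carries, and lies on chromosome 8 from 69139677 to 69154732. Its level was 7.89, 10.4 and 7.05 CPM in I/R and 7.02, 11.1 and 10.3 CPM in sham. The groups overlapped over nearly their whole range, with a log2 fold change of -0.17 (SE 0.22, 95% confidence interval -0.68 to 0.34) and an edgeR adjusted p of 0.578. The sign turned to 0.088 with scaling by totals alone. Plvap overlaps Gtpbp3 on the opposite strand over 1832 bases, and whether the counting used strand is not stated. Gtpbp3 had 4988 counts over the 6 libraries beside 2136 for Plvap, and its own log2 fold change was -0.0029.

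The partners of Plvap in caveolae and fenestrae moved otherwise, with 8 of 8 called higher and a median log2 fold change of 1.14. The rise was not particular to them. The pan-endothelial genes described below, which include Emcn, had a median of 1.03 with 15 of 20 called higher. Cav1 and Cavin1, which build caveolae, rose by 1.57 and 1.13, Ehd2, a caveola neck protein, by 2.06 and Emcn, a surface mucin of endothelium, 4.01-fold. Without sham replicate 1 or sham replicate 2, 5 of the 8 were called. The calls lost were those of Cavin1 (adjusted p = 0.0585 and 0.0574), Cavin2 (0.0538 and 0.0585) and Pacsin2 (0.142 and 0.0589). Without the libraries low in Ttr 6 were called, and Cavin2 (0.0739) and Pacsin2 (0.0976) were not.

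Wnt/beta-catenin signalling, which is known to keep up barrier genes in brain endothelium, gave 1 of 18 genes called higher and 5 lower, with a median log2 fold change of -0.03. With scaling by totals alone these counts were 4 and 2 and the median was 0.23, and without the libraries low in Ttr they were 1 and 3. Without I/R replicate 2, sham replicate 1 or sham replicate 2 they were also 1 and 3. The target genes Axin2 and Apcdd1 had log2 fold changes of -0.66 and -0.73, and Foxf2, a transcription factor gene also active in pericytes, had 0.87. Notum, which encodes a secreted Wnt inhibitor, had -1.08. Its call was lost without I/R replicate 2 or 3 or sham replicate 1 or 2 (adjusted p from 0.0642 to 0.170). It was also lost without the libraries low in Ttr (0.140). Ctnnb1, which encodes beta-catenin, and Lef1 had -0.02 (adjusted p = 0.912) and 0.24 (adjusted p = 0.476).

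**Figure D3:**
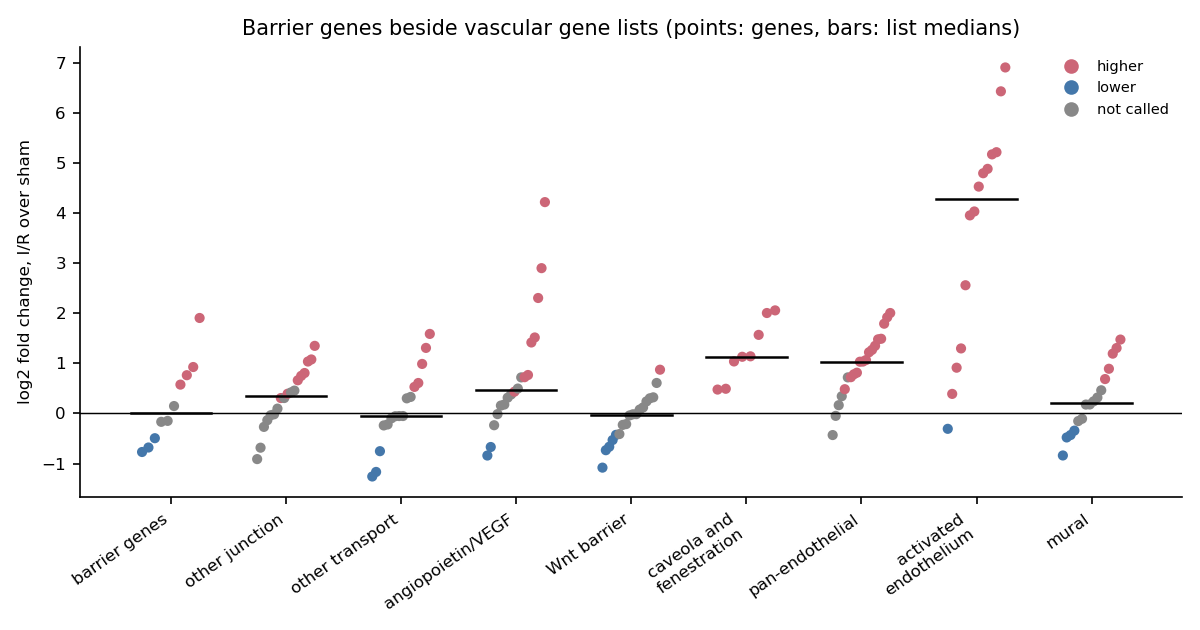
Log2 fold change of I/R over sham for each tested gene of the barrier list and of the related lists, 1 point per gene, with the median of each list marked and 0 as equal levels. The barrier genes spread on both sides of 0, and the caveola and fenestration partners lie above 0.

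In the deposited FPKM, the barrier genes fell into a high and a low set in sham. In FPKM the order was Tjp1 (39.5), Slco1c1 (26.6), Mfsd2a (25.1), Cldn5 (24.0), Abcb1a (20.7), Ocln (10.3), Plvap (4.30), Tek (3.98), Cdh5 (3.75) and Kdr (3.70). The ranges over the 3 sham libraries overlapped between Slco1c1 and Mfsd2a, between Mfsd2a and Cldn5 and between neighbours among the 4 lowest genes, so the order of these neighbours was not set. In I/R Cdh5 was at rank 5 of the 10, where it was at rank 9 in sham. The gene length behind the deposited FPKM was shorter than the length listed in the table for 7 of the 10 genes. With the listed length Slco1c1 and Cldn5 came before Tjp1. Abcb1a (8.69) and Ocln (6.23) then lay closer to Plvap (4.30), so the split into 2 sets was less clear.

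Most of the general endothelial genes rose. Of 20 pan-endothelial genes, 15 were called higher by edgeR and the other 5 did not pass, with a median log2 fold change of 1.03, among them Pecam1, the gene of a junction and platelet adhesion protein, at 1.92. Their summed level was 875, 611 and 524 CPM in I/R and 346 to 368 CPM in sham. Without I/R replicate 1 the median was 0.71, with 15 called higher and 1 lower.

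The barrier genes were also expressed per 1000 counts of that pan-endothelial sum in the same library, a ratio that does not depend on how libraries are scaled to each other and to which no test was applied. Cdh5 stood at 92.8, 91.0 and 76.5 for I/R and at 44.3, 44.3 and 45.2 for sham, 1.95 times higher in I/R. It was the 1 gene of the 10 whose I/R libraries all lay above sham on this scale. Cldn5 (94.9 in I/R and 105 in sham on average) and Kdr (49.8 and 50.1) overlapped between the groups. Tek, at 33.5 and 42.4, lay below sham, opposite to its direction in CPM.

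The sum itself was higher in I/R. Over all tested genes the median of the same ratio was 0.56, 66.3% had I/R below sham without overlap and 6.83% had I/R above. The lowest ratios among the 10 were those of 2 transporters and of Ocln. Slco1c1 stood at 37.6, 94.8 and 74.9 per 1000 for I/R against 183, 189 and 256 for sham, a ratio of the means of 0.330. Abcb1a stood at 33.6, 43.5 and 58.5 for I/R against 132, 119 and 143 for sham, a ratio of 0.345. All I/R libraries of both genes lay below all sham libraries. Ocln had a ratio of 0.388, Plvap of 0.492 and Mfsd2a of 0.498, and Tjp1 averaged 222 in I/R against 370 in sham, each with groups that did not overlap. In all, 7 of the 10 genes lay below sham on this scale, a share near that of all genes, and the ratios of Plvap, Mfsd2a and Tjp1 were near the median of all genes. The count was also 7 when Flt1, which made up 20.6% of the sum, was left out.

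**Figure D4:**
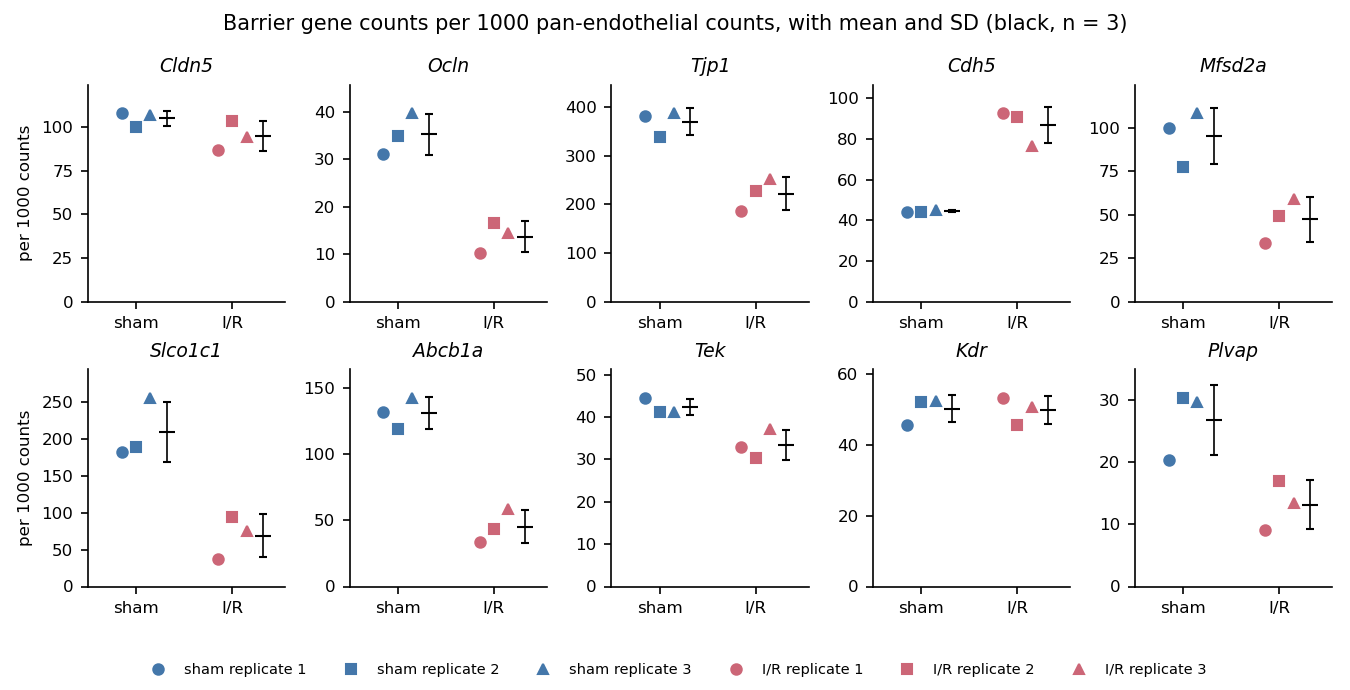
Counts of each barrier gene per 1000 counts of the 20 pan-endothelial genes in the same library, with points for the 3 sham and 3 I/R libraries. Cdh5 is the gene with I/R above sham (86.8 against 44.6 on average), Cldn5 and Kdr overlap, and the other 7 genes lie lower in I/R, as did 66.3% of all tested genes.

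Marker genes of other cell types moved between the groups. The 10 genes listed for hippocampal neurons were all detected, but genes of other regions were not compared, so this does not test the labelled region. They summed to 3638 to 3802 CPM in sham and to 906, 1959 and 2092 CPM in I/R, with 7 of 10 called lower and the other 3 not called. Snap25 held most of their counts, 363020 over the 6 libraries beside 66733 for Rbfox3. Monocyte and border macrophage genes summed to 16.8 to 19.1 CPM in sham and to 251, 121 and 112 CPM in I/R, with 6 of 7 called higher. That sum rests mainly on Cd14, with 14692 counts over the 6 libraries beside 2575 for Lyz2. I/R replicate 1, the library highest in Cdh5, Cldn5, Kdr and Tek, was also the highest in the macrophage sum and the lowest in the neuron sum. The part of these shifts in the barrier gene results was not tested.

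The 2 libraries low in Ttr were also the lowest of their groups in Plvap. With the mean level of the choroid plexus genes as a covariate, the log2 fold change was -0.10 for Plvap and -0.73 for Slco1c1 (edgeR adjusted p = 0.639 and 0.0241). Without the 2 libraries, Ocln, Slco1c1 and Tek were no longer called (adjusted p = 0.0876, 0.0701 and 0.0794), and their log2 fold changes were -0.50, -0.82 and 0.67. Calls over all genes also dropped in that smaller fit, from 7756 to 5255. The part of choroid plexus RNA in the lost calls was not tested.

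Scaling by totals alone moved the median log2 fold change of all genes from 0.03 to 0.28 and that of the barrier genes to 0.26. Of the 10 barrier genes, 5 were then called higher and 1 lower. Of the 18569 tested genes, 8361 were called there, against 7756 with the reported fit, and their split by direction is not given here. Cdh5, Cldn5, Kdr and Abcb1a kept their direction and call under each of the 18 alternative settings.

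**Figure D5:**
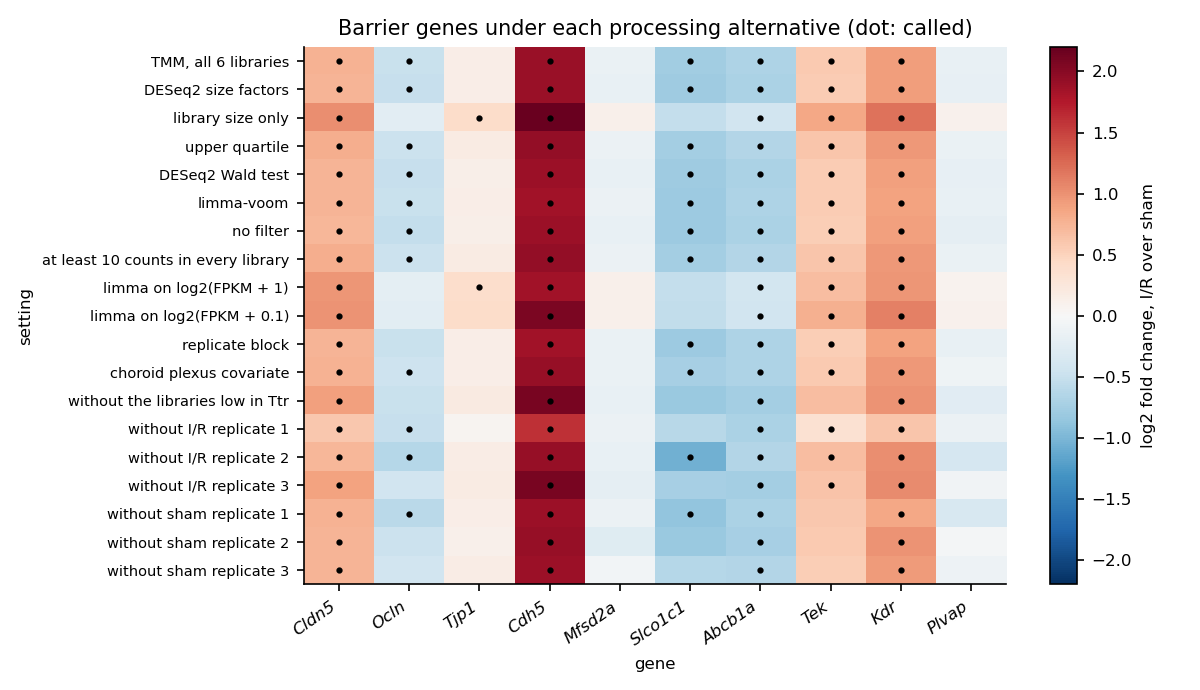
Log2 fold change of each barrier gene (columns) under the reported fit and the 18 alternative settings (rows), shown as colour, red above 0 and blue below. A dot marks each setting in which the gene was called. Cdh5, Cldn5, Kdr and Tek stay above 0 throughout, Ocln, Slco1c1 and Abcb1a stay below 0, and Mfsd2a and Plvap fall on both sides.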

How the data were processed

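Per the study's methods and the labels, the authors aligned reads to an Ensembl genome with TopHat2 and counted reads per gene with HTSeq, and deposited raw counts and FPKM. The submitters' processing notes name Bowtie 0.12.2 and mm8, while the identifiers are those of Ensembl's BALB/cJ annotation, so reads of C57BL/6 mice were counted on another strain's genes. Strand setting and the handling of multi-mapped reads are not given in the sources used here. The authors' p-values, and the deposited signal columns that hold their normalized mean count per group, were not used.

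The table had 41390 lines for 41386 genes, 4 of them split and rejoined. The test was edgeR 4.0.16's under R 4.3.3 (filterByExpr, TMM scaling, quasi-likelihood test with robust spread, all 6 libraries, group as the only term), with Benjamini-Hochberg adjustment over 18569 genes. The SE is the log2 fold change divided by the root of F. Alternatives used DESeq2 1.42.0, limma 3.58.1 on log2(FPKM + 1) and log2(FPKM + 0.1), other scalings and filters, and left-out libraries. The fit was tested on simulated data. Replicate libraries differed by more than sampling noise, with a chi-square per degree of freedom of 9.93 to 109.

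Of 194 genes in the lists, 186 were matched by name, 4 by an older symbol and 1 by the table's RefSeq text, and 3 (Cgn, Ctnnd1 and Ly6c2) were not analysed here. The members and lists were chosen with earlier results of these data known. Besides the 10 genes, the text names ligands and partners fixed by role and, per list, the called gene with a mean of at least 1 CPM that changed most in each direction, with other genes named from list counts after their values were seen. Some genes that the role rule names are not reported here.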

Additional observations from a re-analysis of the deposited data

How the results depend on the processing

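The 18 settings tried were other scalings, tests and filters, FPKM in place of counts, a replicate block, a choroid plexus covariate and left-out libraries. The call was unchanged under all 18 for Cldn5, Cdh5, Kdr, Abcb1a, Mfsd2a and Plvap, under 16 for Tjp1, 14 for Tek and 10 each for Ocln and Slco1c1. Mfsd2a, reported at -0.15, and Plvap, at -0.17, changed sign with scaling by totals alone (0.11 and 0.088), with log2(FPKM + 1) (0.11 and 0.076) and with log2(FPKM + 0.1) (0.11 and 0.094), none of them called; the FPKM are likewise scaled by library totals. The 3 barrier genes called lower became 1 with scaling by totals alone, with either FPKM setting and without the libraries low in Ttr, and 0 with a required change over 2-fold, which left 1 called higher. With 1 library left out at a time, 3 to 4 barrier genes were called higher and 1 to 3 lower, and 5330 to 7976 of all genes were called. Over all genes, 7756 were called, 2760 of them with a change over 2-fold and 9047 at an unadjusted p under 0.05.

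Correlations between same-numbered I/R and sham libraries of their deviations from the group means were -0.10, 0.06 and -0.18. Those between differently numbered libraries ran from -0.17 to 0.27. With 3 libraries per group, these values cannot show whether the replicate numbers paired the samples. With the replicate number as a block, 4 barrier genes were called higher and 2 lower, with Ocln at an adjusted p of 0.0783, and 6332 genes in all. The lowest counts among the 10 were those of Ocln and Plvap, 274 to 522 per library. The other settings for the related lists, the pan-endothelial sum without Flt1 and the levels by listed length were chosen after seeing the data.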

Other observations

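Among genes of activated endothelium, 13 of 14 were called higher in I/R and 1 lower by edgeR, with a median log2 fold change of 4.28. Without I/R replicate 1, 10 were called higher and 1 lower, with a median of 3.79, and 10 were called higher with no count filter. Timp1, a protease inhibitor gene, rose the most, from 0.538, 0.664 and 0.349 CPM in the sham libraries to 79.1, 63.8 and 46.3 CPM in I/R. Timp1 lies within Syn1, a neuronal gene with 93683 counts over the 6 libraries beside 8064 for Timp1. The gene called lower, Ackr1, which marks venules, had a log2 fold change of -0.31 and overlaps Cadm3, with 93238 counts beside 6581. Its call was lost without any 1 sham replicate (adjusted p from 0.0671 to 0.0988) or without I/R replicate 2 (0.0645). It was also lost without the libraries low in Ttr (0.113). Several of these genes, such as Lcn2, Socs3 and Cd44, are also made by glia and leukocytes.

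Pericyte and smooth muscle genes went both ways, with 5 of 16 called higher and 4 lower, and a median log2 fold change of 0.21. Des, a pericyte filament gene, rose by 1.47, and Myh11, the smooth muscle myosin gene, fell by 0.84 on the log2 scale. Pdgfrb, the pericyte receptor gene, rose by 0.69 (edgeR adjusted p = 0.0302), a call lost without I/R replicate 2 (0.0607) or sham replicate 1 (0.0709), 2 (0.109) or 3 (0.0899). Without the libraries low in Ttr, 5 were called higher and 1 lower, and without 1 library 3 to 5 were called higher and 2 to 4 lower, with 3 higher without sham replicate 1 or 3 and 2 lower without any 1 sham replicate.

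Meningeal and perivascular fibroblast genes had 4 of 10 called higher and the other 6 not called. Col3a1 rose the most, by a log2 fold change of 2.07. Without sham replicate 2, 2 were called higher, and without the libraries low in Ttr 3 were called higher and 1 lower. Astrocyte genes had 2 of 9 higher and 5 lower, and 1 higher and 3 lower without the libraries low in Ttr, with Aqp4 losing its call there and without any 1 library but I/R replicate 1 (adjusted p from 0.0718 to 0.145), and with Gfap, the reactive filament gene, at 2.31 and Slc1a2, the glutamate transporter gene, at -0.96. Microglia genes had 3 of 8 higher and 3 lower, with Aif1 at 0.76 and Siglech at -1.91, and 1 higher without the libraries low in Ttr, sham replicate 1 or sham replicate 2, where Aif1 lost its call (adjusted p = 0.117, 0.0588 and 0.0584). Among choroid plexus genes 1 of 13 was called, Sostdc1 at -1.92, and its call was lost in 11 of the 18 settings, among them each single library left out but sham replicate 1. Without the libraries low in Ttr 5 were called lower, and without sham replicate 1, 2.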
